A study of Mus musculus with 12 samples.

Results

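The 9 genes described here encode enzymes and subunits of the tricarboxylic acid (TCA) cycle, namely Cs, Idh3a, Idh3b, Idh3g, Ogdh, Suclg1, Suclg2, Fh1 and Mdh2. They were chosen by name, all 9 were found among the 14159 genes listed in the deposited values, and all 9 passed the filter on low values. The RNA came from whole inguinal white adipose tissue (iWAT) of C57BL/6 mice and was sequenced in 12 libraries, with 3 biological replicates, numbered 0 to 2, in each of 4 groups. Atf4AKO mice carried floxed Atf4 alleles and Cre under the adiponectin promoter, which acts in adipocytes, so the other cell types of the tissue kept Atf4. Their floxed littermates without Cre served as Atf4WT. Mice of both genotypes were kept at room temperature (RT) or exposed to cold for 24 h, and their age is not given in the sources used here for these libraries. The comparisons ask how the TCA cycle transcripts responded to cold in each genotype, and whether the loss of ATF4, a transcription factor of the integrated stress response, changed their level or their response.

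The TCA cycle runs in the mitochondrial matrix, where it oxidizes acetyl-CoA from fatty acids and glucose and passes the electrons to the respiratory chain as NADH and FADH2. Citrate synthase opens the cycle, isocitrate dehydrogenase and the 2-oxoglutarate dehydrogenase complex release carbon dioxide and form NADH, succinyl-CoA synthetase forms a nucleoside triphosphate, and fumarase and malate dehydrogenase return the carbon to oxaloacetate. In cold-exposed iWAT, beige adipocytes appear that contain many mitochondria and burn fuel for heat through uncoupling protein 1.

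The values are normalized counts, that is, the reads of a gene divided by the size factor of the library. The libraries held between 25719476 and 29105147 reads on the listed genes. The Atf4 transcript was measured at 5669, 4670 and 4107 normalized counts in Atf4WT iWAT at RT and at 7644, 7511 and 5756 after cold, against 1594, 1470 and 1639 in Atf4AKO iWAT at RT and 1578.5, 788 and 1180 after cold. Each of the 6 Atf4AKO libraries was below each of the 6 Atf4WT libraries. Ucp1, the marker of the thermogenic adipocyte, lay between 204 and 1097 normalized counts at RT and at 73632 or more after cold. The white adipocyte markers had a mean log2 value of 15.77 to 16.32 over the 12 libraries.

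Transcripts of other cell types were unevenly spread over the libraries. The B cell markers (13 of 14 listed) summed to 8058 to 20178 normalized counts in cold-exposed Atf4WT iWAT and 2800 to 3969 in cold-exposed Atf4AKO iWAT, but most of the latter was Ebf1 (3109, 2616 and 3445), which did not follow the other markers. Without Ebf1, a choice made after the values were seen, the remaining 12 summed to 5312 to 17765 in cold-exposed Atf4WT and 185 to 860 in cold-exposed Atf4AKO iWAT, against 466 to 5368 and 408 to 1191 at RT. The summed T cell markers (19 of 19 listed) were 1934 to 14168 in Atf4WT and 348 to 976 in Atf4AKO iWAT after cold, against 499 to 1545 and 669 to 1523 at RT. Skeletal muscle markers (10 of 16 listed) had a mean log2 value of 12.18 in Atf4WT RT replicate 2, 10.70 in Atf4WT cold replicate 0 and 8.14 in Atf4AKO cold replicate 1, against 4.19 to 5.29 in the other 9 libraries. The summed macrophage markers (11 of 12 listed) were 15017 in Atf4WT cold replicate 1 and 6011 in Atf4AKO cold replicate 1. In every other library they were 26973 to 49939. The summed fibroblast markers (8 of 8 listed) were 50581 to 122020 in Atf4WT and 56280 to 106740 in Atf4AKO iWAT after cold. At RT they were 191670 to 214900 and 177730 to 257720. No listed marker was at 0, since the deposited genes have at least 1 read in each library. In whole tissue, fewer cells of a type and less RNA per cell cannot be told apart, and this holds for every difference given here.

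The stretches of sequence just upstream of the start are shown for Suclg2, the one member without a rise in either genotype, for Sucla2, which encodes the alternative partner of the same enzyme, and for the members with a match to a searched motif that could be shown outside long transcribed stretches. The windows came from RefSeq (GRCm38.p6) and ran from 250 bases before to 50 bases after a start. Of the 9 members 8 had one, and Idh3a had none and was not searched. Capitals mark the matched motif, each sequence reads 5′ to 3′ on the strand of the gene, and offsets count from the RefSeq start.
Suclg2: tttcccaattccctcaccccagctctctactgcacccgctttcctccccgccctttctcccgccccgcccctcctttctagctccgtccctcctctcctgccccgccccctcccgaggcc
Sucla2: gcaactgcgtctctgCGCCTGCGCggtgcc
Ogdh: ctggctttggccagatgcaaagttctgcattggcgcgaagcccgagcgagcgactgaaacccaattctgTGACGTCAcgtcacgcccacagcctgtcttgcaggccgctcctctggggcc
Mdh2: gagagaatcgTGACGTCAggcctcgctcgc
Idh3g: tcccctccccAAGATGGCGgaacagtgctc
The Suclg2 stretch lies at chr6:95718847-95718966 on the minus strand, Sucla2 at chr14:73552755-73552784 on the plus strand, Ogdh at chr11:6291477-6291596 on the plus strand, Mdh2 at chr5:135778512-135778541 on the plus strand and Idh3g at chrX:73787008-73787037 on the minus strand. The annotation places an exon of Sucla2, of Mdh2 and of the neighbouring gene Ssr4 over the Sucla2, Mdh2 and Idh3g stretches, and none over the Suclg2 and Ogdh stretches.

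The motifs searched on both strands were TCAAGGTCA and its shorter form AAGGTCA (estrogen-related receptors), CGCNTGCGC (NRF1), CCGGAAGT (ETS factors such as GABPA), TGATGNAA (ATF4 with C/EBP), TGACGTCA (cAMP response element) and AAGATGGCG (YY1). AAGGTCA is contained in TCAAGGTCA. Ogdh and Mdh2 held TGACGTCA, which was found in 1.79% of the 32851 windows. In Mdh2 its first base was at offset -127, and in Ogdh the same bases were at -51, -60 or -113 depending on which of the RefSeq starts is taken. Idh3g held AAGATGGCG at -130, a motif found in 1.40% of windows, and other Ogdh windows held AAGGTCA (4.72% of windows) and CGCNTGCGC (6.25%). The shares count single windows, whereas Ogdh had 6 windows and the other members with a window had 1 each. TGATGNAA, found in 3.97% of all windows, TCAAGGTCA in 0.423% and CCGGAAGT in 3.89% matched 0 of the 8 members with a window. Suclg2 matched none of the motifs, and neither did Cs, Idh3b, Suclg1 and Fh1. Sucla2 held CGCNTGCGC at -16. A match describes letters only, and the absence of one says nothing about the factor.

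Cs encodes citrate synthase, which joins acetyl-CoA to oxaloacetate (NM_026444, chr10:128337734-128362479, plus strand, GRCm38). Its level in Atf4WT iWAT was 26635, 28763 and 20443 normalized counts at RT and 40777, 37589 and 40018 after cold. In Atf4AKO iWAT it was 28364, 30409 and 24034 at RT and 40792, 47691 and 54740 after cold. In both genotypes every cold library was above every RT library. On the scale of log2(normalized count + 1), the transcript rose by 0.66 ± 0.16 (SE, n = 3 against 3) in Atf4WT iWAT, a fold of 1.58 (adjusted p = 0.00908 by limma over all 13404 tested genes), and by 0.79 ± 0.16 in Atf4AKO iWAT (adjusted p = 0.00443). In what follows, "rose" or "fell" is written only for an adjusted p (Benjamini-Hochberg) under 0.05 in this test.

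The NAD-dependent isocitrate dehydrogenase is built from the catalytic subunit Idh3a and the subunits Idh3b and Idh3g. Idh3a (NM_029573, chr9:54586334-54604661, plus strand) had the largest cold response of the 9 genes in both genotypes. It was at 10419, 11136 and 8335 normalized counts in Atf4WT iWAT at RT and at 26764, 24372 and 27387 after cold. In Atf4AKO iWAT the values were 11039, 12153 and 9179 at RT and 26928, 34746 and 30487 after cold. Every cold library was at least 2 times as high as every RT library of either genotype. Idh3a rose by 1.40 ± 0.14 in Atf4WT iWAT, a fold of 2.64 (adjusted p = 0.0001045), and by 1.51 ± 0.14 in Atf4AKO iWAT, a fold of 2.85 (adjusted p = 7.65e-05).

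Idh3b (NM_130884, chr2:130279309-130284547, minus strand) and Idh3g (NM_001356356, chrX:73778963-73786897, minus strand) rose less. Idh3b went from 7534, 7643 and 6901 normalized counts to 10937, 11179 and 10263 in Atf4WT iWAT, and from 7439, 8380 and 7571 to 10843, 14219 and 13159 in Atf4AKO iWAT. Idh3g went from 7591, 7618 and 6603 to 9380, 10344 and 9234 in Atf4WT iWAT, and from 6934, 8600 and 7292 to 9915, 12261 and 11316 in Atf4AKO iWAT. Both transcripts were separated between RT and cold in each genotype, with a narrower gap than Idh3a. The log2 differences were 0.55 ± 0.10 for Idh3b in Atf4WT iWAT (adjusted p = 0.00266) and 0.70 ± 0.10 in Atf4AKO iWAT (adjusted p = 0.000899). For Idh3g they were 0.41 ± 0.11 (adjusted p = 0.0157) and 0.55 ± 0.11 (adjusted p = 0.00433). The call for Idh3g in Atf4WT iWAT was lost without Atf4WT RT replicate 2, where the difference was 0.34, or without Atf4WT cold replicate 1, where it was 0.36.

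Ogdh encodes the E1 subunit of the 2-oxoglutarate dehydrogenase complex (NM_001252283, chr11:6291633-6356642, plus strand). Its level in Atf4WT iWAT was 15066, 16304 and 13801 normalized counts at RT and 25162, 26489 and 25985 after cold. In Atf4AKO iWAT it was 15103, 16746 and 14404 at RT and 23478, 32100 and 33868 after cold. Atf4AKO cold replicate 0 stayed below all 3 cold Atf4WT libraries, and the other 2 were above them. Ogdh rose by 0.78 ± 0.13 in Atf4WT iWAT (adjusted p = 0.00177) and by 0.94 ± 0.13 in Atf4AKO iWAT (adjusted p = 0.00081).

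Succinyl-CoA synthetase pairs the shared alpha subunit Suclg1 with one of 2 beta subunits, the GTP-forming Suclg2 or the ATP-forming Sucla2. Suclg1 (NM_019879, chr6:73248382-73276911, plus strand) was at 4773, 4689 and 3677 normalized counts in Atf4WT iWAT at RT and at 7533, 7269 and 6918 after cold, and in Atf4AKO iWAT at 4483, 5206 and 4151 at RT and at 7047, 9160 and 8286 after cold. It rose by 0.73 ± 0.13 in Atf4WT iWAT (adjusted p = 0.00191) and by 0.82 ± 0.13 in Atf4AKO iWAT (adjusted p = 0.00129). Suclg2 (NM_011507, chr6:95473009-95718800, minus strand) did not follow its partner. It was at 4417, 4080 and 3563 in Atf4WT iWAT at RT and at 3485, 3896 and 3544 after cold, and in Atf4AKO iWAT at 3772, 5014 and 4151 at RT and at 3904, 3824 and 4159 after cold. The RT and cold values overlapped in both genotypes. The log2 difference of Suclg2 was -0.14 (95% interval -0.38 to 0.10, adjusted p = 0.363) in Atf4WT iWAT and -0.11 (-0.36 to 0.13, adjusted p = 0.478) in Atf4AKO iWAT. Without Atf4AKO RT replicate 1, the second difference was 0.0011.

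Fh1 encodes fumarase, which hydrates fumarate to malate (NM_010209, chr1:175600374-175625635, minus strand). It was measured at 5210, 5544 and 4166 normalized counts in Atf4WT iWAT at RT and at 6397, 6428 and 6159 after cold. The Atf4AKO values were 5309, 5954 and 4456 at RT and 6206.5, 8113 and 7431 after cold. The cold libraries were above the RT libraries in each genotype. In Atf4WT iWAT the log2 difference was 0.36 (95% interval 0.06 to 0.66) and did not pass (adjusted p = 0.0664), and in Atf4AKO iWAT Fh1 rose by 0.47 ± 0.14 (adjusted p = 0.0273). Fh1 in Atf4WT iWAT passed under 5 of the alternatives tried, at 0.33 to 0.36 under 4 of them and at 0.77 with the lymphocyte markers as a covariate. The call in Atf4AKO iWAT was lost when only the 2 groups were fitted (0.47), without the 3 libraries with muscle transcripts (0.38) and without any one of Atf4AKO RT replicates 0 and 2 and Atf4AKO cold replicates 1 and 2, where the difference was 0.36 to 0.48. The difference between the responses was 0.11 (95% interval -0.31 to 0.54), so the genotypes were not shown to differ for Fh1.

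Mdh2, the mitochondrial malate dehydrogenase, closes the cycle (NM_008617, chr5:135778480-135790398, plus strand). Its values were 15529, 15979 and 11175 normalized counts in Atf4WT iWAT at RT and 24348, 24661 and 21825 after cold. In Atf4AKO iWAT they were 15500, 17992 and 13331 at RT and 23084, 28975 and 28521 after cold. No RT library reached a cold library of the same genotype. Mdh2 rose by 0.75 ± 0.16 in Atf4WT iWAT (adjusted p = 0.00533) and by 0.79 ± 0.16 in Atf4AKO iWAT (adjusted p = 0.00495).

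**Figure D1:**
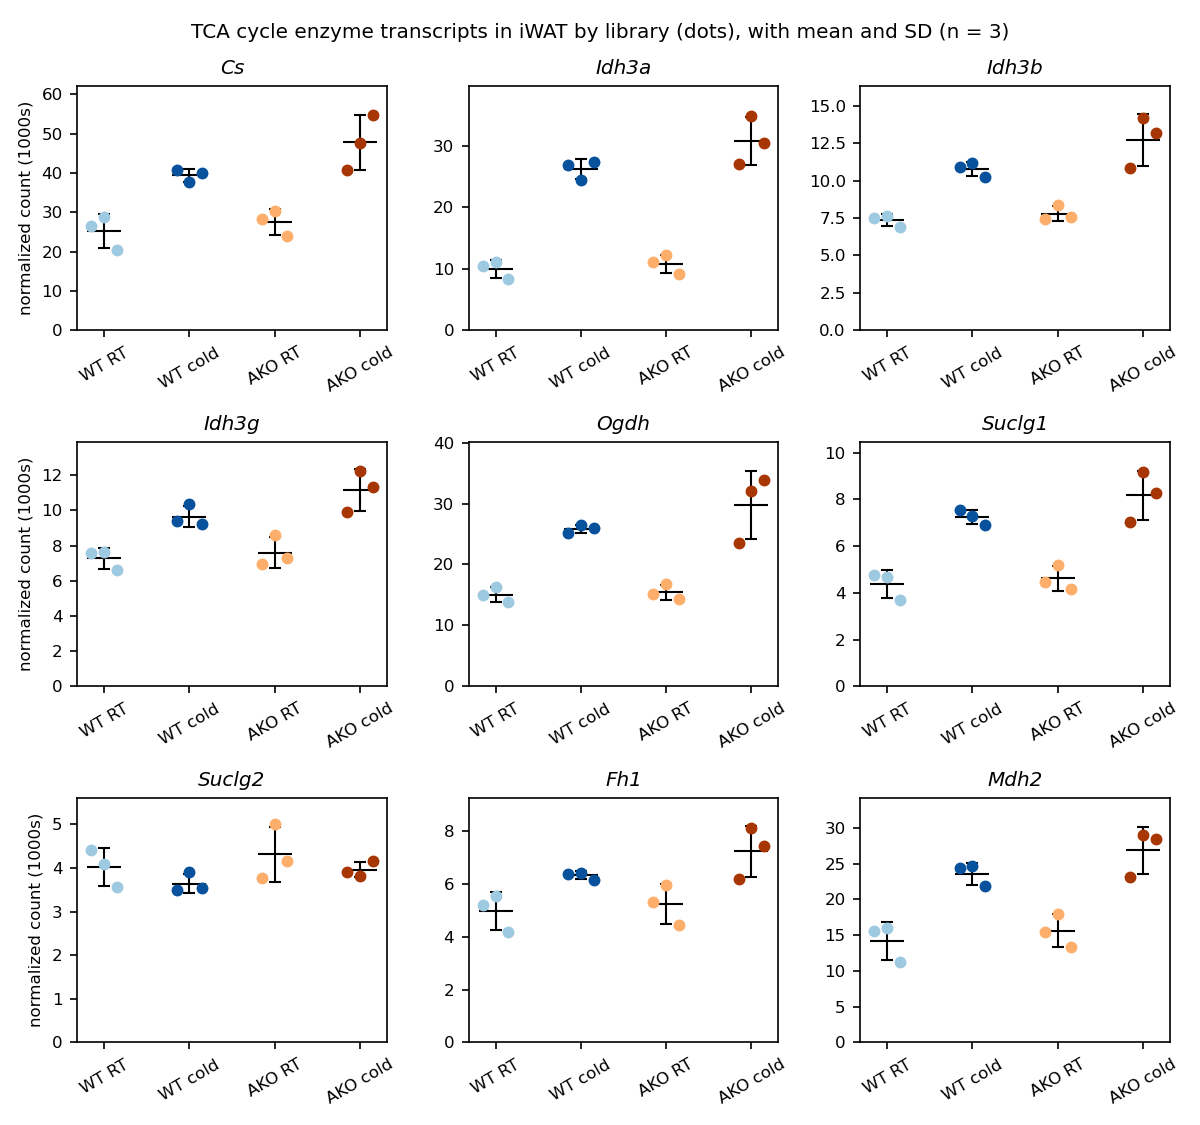
Normalized counts (in units of 1000, axis from 0) of the 9 TCA cycle genes in the 4 groups, with 1 dot a library and a black bar and whiskers for the mean and SD (n = 3). For every gene except Suclg2 the cold dots lie above the RT dots of the same genotype, and for Suclg2 they overlap.

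Cold exposure of Atf4WT iWAT thus raised 7 of the 9 transcripts and lowered 0, and the same test called 17.0% of all tested genes higher and 14.9% lower. The median log2 difference of the 9 genes was 0.66, against 0.0026 over all tested genes. In the same comparison 18 of 19 T cell and 10 of 13 B cell markers rose (median log2 differences 3.36 and 4.45), and 3 of 8 fibroblast markers fell (median -1.34). With the mean log2 value of the B and T cell markers as a covariate, 8 of the 9 rose and their median was 1.05, and the part of these cell types in the cold response was not tested. That score was 4.34 to 7.22 at RT and 7.37 to 9.79 after cold in Atf4WT iWAT, so the adjusted median rests on extrapolation. At the threshold of the study for differential expression, a fold over 1.5 with an unadjusted p under 0.05, 5 of 9 were higher (10.9% of all genes), as Idh3b and Idh3g were below the fold. The groups did not overlap, with cold above RT, for 8 of 9 (23.9% of all genes). Cold exposure of Atf4AKO iWAT raised 8 of the 9 and lowered 0 (14.8% of all genes were called higher and 11.0% lower), with a median of 0.79 against -0.03. Here 6 of 9 passed the threshold on the fold (8.30% of all genes), and 8 of 9 did not overlap (21.7%). In this comparison 5 of 8 fibroblast markers fell (median -1.40), and 0 of 19 T cell and 0 of 13 B cell markers rose. Of all calls in Atf4AKO iWAT, 57.3% were higher after cold, and 46.5% when the libraries were rescaled to the same 75th percentile, under which the same number of members, 8, rose. Without the 3 libraries with muscle transcripts, an alternative chosen after the data were seen, 5 of 9 rose in Atf4WT iWAT with a median of 0.50, as Cs (0.49) and Idh3g (0.36) no longer passed, and 7 of 9 rose in Atf4AKO iWAT.

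Summed as a share of the library (CPM, over the listed genes), the 9 transcripts made up 3643, 3714 and 3144 CPM in Atf4WT iWAT at RT and 5566, 5608 and 5894 CPM after cold. In Atf4AKO iWAT the share was 3620, 3869 and 3453 CPM at RT and 5348, 6537 and 6633 after cold. The 6 cold libraries were all above the 6 RT libraries. The spread over the cold libraries was larger in Atf4AKO (SD 716) than in Atf4WT iWAT (SD 179), mostly through Atf4AKO cold replicate 0, and this difference in spread was not tested.

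Levels between genes are given per kilobase of merged exons, and on this scale Idh3a moved up in the order with cold. In Atf4WT iWAT at RT, Cs (4374 ± 748 normalized counts per kilobase, SD, n = 3) and Mdh2 (3994 ± 745) were highest, followed by Ogdh (2760 ± 229), Idh3g (2692 ± 214), Idh3b (2151 ± 117), Idh3a (1964 ± 287), Fh1 (1466 ± 212), Suclg1 (948.6 ± 132) and Suclg2 (869.6 ± 93.1). The ranges of Cs and Mdh2, of Ogdh and Idh3g, of Idh3b and Idh3a, and of Suclg1 and Suclg2 overlapped, so the order within these pairs was within the spread. After cold, Idh3a ranked 3 of 9 in Atf4WT iWAT at 5161 ± 314 per kilobase and its range still overlapped with Ogdh (4743 ± 123). Suclg2 was last at 787.7 ± 48, now below the range of Suclg1 (1568 ± 66.8). Per kilobase of coding sequence in place of merged exons, Idh3a ranked 3 of 9 in Atf4WT iWAT both at RT and after cold. Its move in rank there thus depended on the length used. In Atf4AKO iWAT it ranked 3 at RT and 2 after cold by coding length. After cold its range there (23380 to 30160 per kilobase) overlapped with that of Mdh2 (22770 to 28570). Cs and Mdh2 were again the highest in Atf4WT iWAT, and Suclg2 was the lowest in each group.

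The shift between the beta subunits of succinyl-CoA synthetase was tested as a ratio within each library, which does not depend on the scaling of the library. Sucla2 rose from 7397, 8865 and 6884 normalized counts to 14697, 15728 and 15099 in Atf4WT iWAT, by 0.98 ± 0.14 on the log2 scale (adjusted p = 0.000654), and by 1.12 ± 0.14 in Atf4AKO iWAT (adjusted p = 0.000362). The ratio of Suclg2 to Sucla2 was 0.597, 0.46 and 0.518 in Atf4WT iWAT at RT and 0.237, 0.248 and 0.235 after cold. In Atf4AKO iWAT it was 0.51, 0.575 and 0.571 at RT and 0.28, 0.188 and 0.243 after cold. The 6 cold ratios were all below the 6 RT ratios. Over both genotypes the ratio after cold was 0.442 times that at RT, a log2 difference of -1.18 (two-sided exact permutation test within genotype, p = 0.005, the smallest that its 400 arrangements allow, adjusted over 8 ratio tests p = 0.01). The genotypes gave a log2 difference of 0.02 in this ratio (exact permutation test within temperature, adjusted p = 0.885).

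A second ratio set Idh3a against Idh2, the mitochondrial NADP-dependent isocitrate dehydrogenase, which carries out the same oxidation with another cofactor. Idh2 went from 6039, 6083 and 5327 normalized counts at RT to 3503, 3645 and 3218 after cold in Atf4WT iWAT, and from 5291, 5837 and 4967 to 3382, 3953 and 3420 in Atf4AKO iWAT. It fell by 0.75 on the log2 scale in Atf4WT iWAT (adjusted p = 0.000327) and by 0.58 in Atf4AKO iWAT (adjusted p = 0.00151). The ratio of Idh3a to Idh2 was 1.73, 1.83 and 1.56 in Atf4WT iWAT at RT and 7.64, 6.69 and 8.51 after cold, and in Atf4AKO iWAT it was 2.09, 2.08 and 1.85 at RT and 7.96, 8.79 and 8.91 after cold. Over both genotypes it was 4.36 times as high after cold (exact permutation test, p = 0.005, adjusted p = 0.01). The ratio was also 1.15 times as high in Atf4AKO as in Atf4WT iWAT, a log2 difference of 0.20 (exact permutation test within temperature, p = 0.015, adjusted p = 0.024), although after cold the values of the genotypes overlapped. This call was lost without Atf4WT cold replicate 1 (0.16), Atf4AKO RT replicate 0 (0.19), Atf4AKO cold replicate 1 (0.19) or Atf4AKO cold replicate 2 (0.19).

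Within the NAD-dependent enzyme, the ratio of Idh3b to Idh3g moved little. It was 0.992, 1 and 1.05 in Atf4WT iWAT at RT and 1.17, 1.08 and 1.11 after cold, and in Atf4AKO iWAT it was 1.07, 0.974 and 1.04 at RT and 1.09, 1.16 and 1.16 after cold. The rise of 1.11-fold passed (exact permutation test, p = 0.005, adjusted p = 0.01). The ratio of Mdh2 to Mdh1, which encodes the cytosolic malate dehydrogenase of the malate-aspartate shuttle, was 0.694, 0.691 and 0.696 in Atf4WT iWAT at RT and 0.563, 0.561 and 0.519 after cold. In Atf4AKO iWAT the ratio was 0.673, 0.737 and 0.661 at RT and 0.551, 0.563 and 0.571 after cold, so that over both genotypes it was 0.802 times the RT ratio after cold (exact permutation test, p = 0.005, adjusted p = 0.01). Both transcripts rose, with Mdh1 at 1.09 ± 0.15 in Atf4WT and 1.08 ± 0.15 in Atf4AKO iWAT. Neither ratio differed by genotype beyond the spread (exact permutation tests, adjusted p = 0.62 for Idh3b to Idh3g and 0.726 for Mdh2 to Mdh1).

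**Figure D2:**
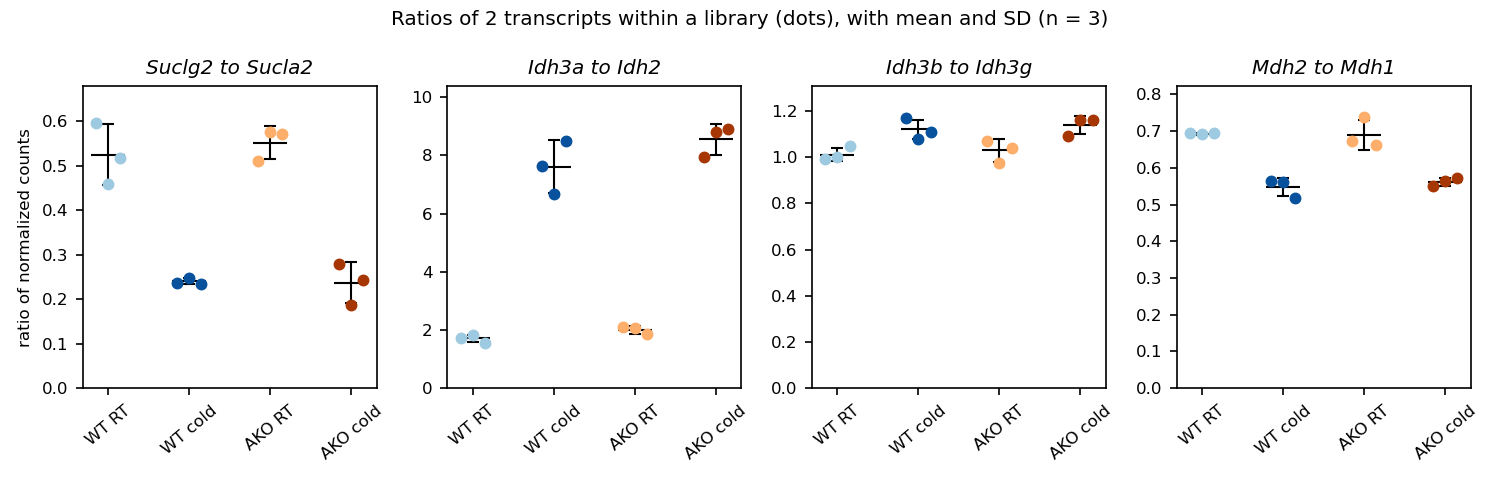
Ratios of normalized counts of 2 transcripts within a library (axis from 0) in the 4 groups, with 1 dot a library and black bars for the mean and SD (n = 3). The ratio of Suclg2 to Sucla2 lies at 0.46 to 0.597 at RT and 0.188 to 0.28 after cold, and that of Idh3a to Idh2 at 1.56 to 2.09 and 6.69 to 8.91.

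Among 9 other genes of the cycle, 6 rose and 1 fell in each genotype. The largest rise in each was that of Sdhd, a membrane anchor of succinate dehydrogenase (1.12 in Atf4WT and 1.17 in Atf4AKO iWAT, adjusted p = 0.000245 and 0.000225), followed by Sucla2. Dlst and Dld, the E2 and E3 subunits of the 2-oxoglutarate dehydrogenase complex, rose by 0.89 and 0.77 in Atf4WT iWAT and by 1.01 and 0.82 in Atf4AKO iWAT, next to Ogdh at 0.78 and 0.94. Mrps36, which links E3 into that complex, rose by 0.84 and 0.96. The subunits of succinate dehydrogenase were uneven, since the iron-sulfur subunit Sdhb rose by 0.62 and 0.69, whereas the flavoprotein Sdha (0.23, adjusted p = 0.205, and 0.31, adjusted p = 0.112) and the anchor Sdhc (0.32, adjusted p = 0.0956, and 0.34, adjusted p = 0.0873) did not pass. The gene that fell was Idh2.

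**Figure D3:**
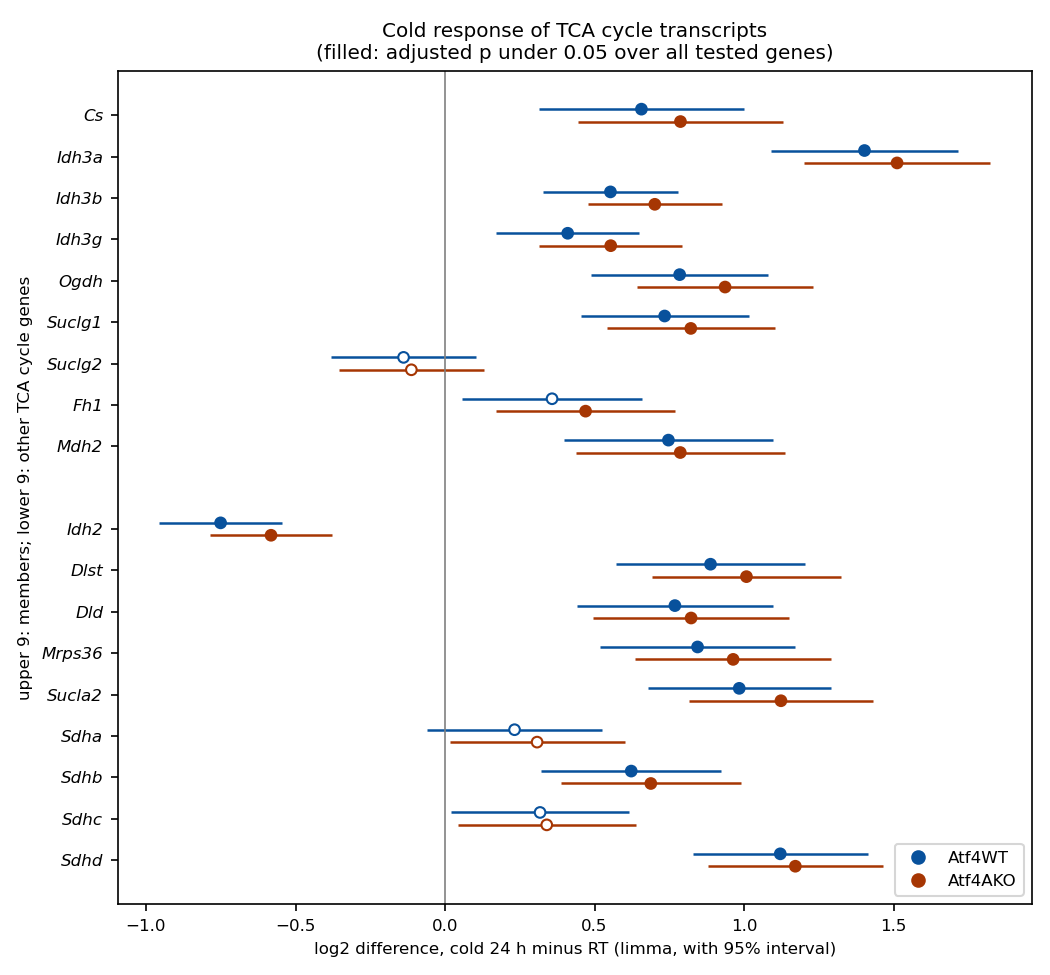
Log2 difference between cold and RT (limma, with the 95% interval) for the 9 members (above) and 9 other TCA cycle genes (below) in Atf4WT (blue) and Atf4AKO iWAT (brown), filled where the adjusted p was under 0.05. Idh3a stands at 1.40 and 1.51, Suclg2 lies to the left of 0 in both genotypes with intervals that include 0, and Idh2 lies at -0.75 and -0.58.

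Of the 4 subunits of the pyruvate dehydrogenase complex, which makes acetyl-CoA from pyruvate, 3 rose in each genotype, namely Pdhx (1.15 in Atf4WT and 1.08 in Atf4AKO iWAT), Dlat (1.13 and 1.18) and Pdhb (1.08 and 0.92), while Pdha1 did not pass (0.45 and 0.36, adjusted p = 0.106 and 0.21). In mitochondrial fatty acid oxidation, 10 of 14 genes rose in Atf4WT and 9 of 14 in Atf4AKO iWAT, with 0 lower. Cpt1b rose by 2.91 and 3.79, Acadvl by 1.23 and 1.14, Etfdh by 1.11 and 1.32 and Hadha by 1.00 and 1.04. The medians of the fatty acid oxidation genes were 0.66 and 0.75, close in value to those of the 9 TCA cycle genes. Among 10 regulators of mitochondrial genes, 8 rose in each genotype, including the coactivators Ppargc1a (2.01 and 2.57) and Ppargc1b (1.62 and 2.15), the nuclear receptor Esrra (1.27 and 1.23) and the mitochondrial deacetylase Sirt3 (0.64 and 0.93).

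Loss of ATF4 in adipocytes was not accompanied by a called change of any of the 9 transcripts. After cold, all 9 had higher mean values in Atf4AKO iWAT, by 0.12 (Suclg2) to 0.27 (Cs) on the log2 scale. Their median was 0.19, against 0.0464 over all tested genes, and limma called 0 of 9 (lowest adjusted p = 0.406). Also higher were 12 of 12 white adipocyte markers (median 0.21) and 13 of 14 fatty acid oxidation genes (0.18). So were 9 of 9 other TCA cycle genes (0.13) and 4 of 4 pyruvate dehydrogenase subunits (0.14). At an unadjusted p under 0.05 limma counted 1 of the 9 members, which was Idh3b with a difference of 0.23 (95% interval 0.01 to 0.46). Called by edgeR and by DESeq2 were 0 of 9. Over all genes, limma called 0 higher and 4 lower (0.0298%), edgeR 0 and 3 (0.0224% in either direction) and DESeq2 31 and 559 (4.40%), and by limma 11.7% had an unadjusted p under 0.05. The libraries of the genotypes did not overlap for 1 of 9, Cs, where Atf4AKO was above Atf4WT (8.68% of all genes). The gap was narrow, as the lowest Atf4AKO library was at 40792 normalized counts and the highest Atf4WT library at 40777. The upper bounds of the 95% intervals were 0.37 (Suclg2) to 0.61 (Cs), so that differences up to these bounds were not excluded with 3 libraries a group.

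The lymphocyte transcripts given above moved with this comparison. With the mean log2 value of the B and T cell markers as a covariate, the 9 differences after cold were all negative, from -0.078 (Idh3b) to -0.45 (Mdh2), and 0 of 9 were called. This score was 7.37 to 9.79 in cold-exposed Atf4WT and 3.85 to 5.52 in cold-exposed Atf4AKO iWAT. The compared groups shared no range of the score, so these adjusted differences rest on extrapolation. Within the groups, the deviation of a library's mean over the 9 genes from its group mean correlated with that of the lymphocyte score at r = -0.775 and with that of the white adipocyte markers at r = 0.803 over the 12 libraries, which share the scaling of each library. Across all 12 libraries without removing the group means, r was 0.058 for the lymphocyte score. The part of lymphocyte RNA in the genotype values was not tested.

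**Figure D4:**
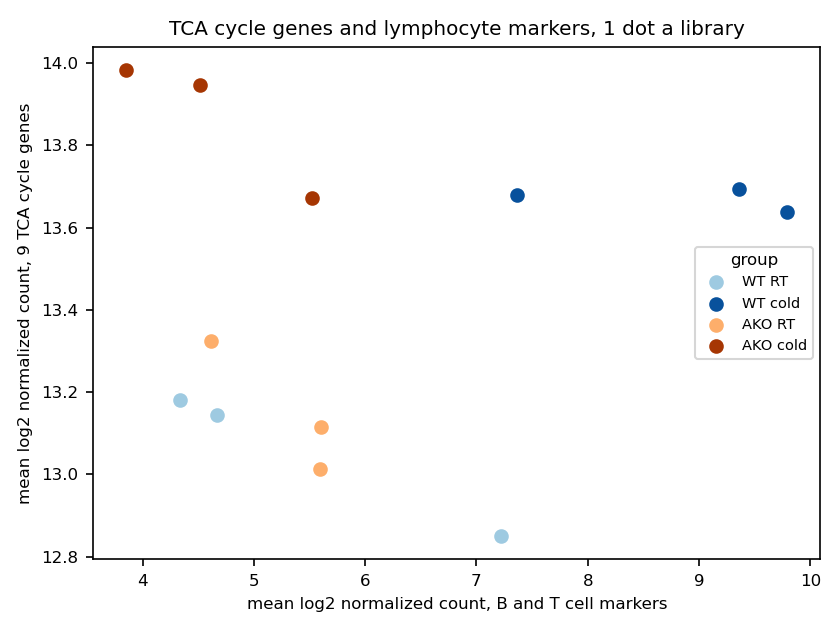
Mean log2 normalized count of the 9 TCA cycle genes (vertical) against that of the B and T cell markers (horizontal), with 1 dot for each of the 12 libraries, coloured by group. The cold libraries lie between 13.64 and 13.98 and the RT libraries between 12.85 and 13.32 on the vertical axis, and the 3 cold Atf4WT libraries lie at 7.37 to 9.79 on the horizontal axis.

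At RT the 9 log2 differences between Atf4AKO and Atf4WT iWAT were 0.03 (Ogdh) to 0.14 (Mdh2), with overlapping libraries for all 9 (3.32% of all genes did not overlap and were higher, 0 of the 9), and limma, edgeR and DESeq2 called 0 of 9 (0.00746% of all genes by edgeR and 0.0373% by DESeq2). At an unadjusted p under 0.05 the count by limma was also 0, and 1.53% of all genes were under this p. Of all genes, limma called 0 higher and 1 lower (0.00746%). The direction rested on single libraries. Without Atf4WT RT replicate 2, the library with the most muscle transcripts and the lowest value of all 9 genes in its group, 7 of the 9 differences were between -0.047 and -0.0054. Without Atf4AKO RT replicate 1, which had the highest value of all 9 in its group, Idh3g, Ogdh, Suclg1, Suclg2 and Fh1 lay between -0.029 and -0.0119.

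The interaction, that is the cold response in Atf4AKO minus that in Atf4WT iWAT, was 0.03 (Suclg2) to 0.15 (Ogdh) on the log2 scale. Its median over the 9 was 0.11, against 0.0348 over all tested genes. limma called 0 of 9 (lowest adjusted p = 0.996, and 0 at an unadjusted p under 0.05), and edgeR and DESeq2 called 0 of 9. Over all genes limma called 0 for this difference, with 928 (6.92%) at an unadjusted p under 0.05, edgeR called 0, and DESeq2 called 4 higher and 128 lower (0.985%). For Idh3a the 95% interval of the interaction ran from -0.33 to 0.55, next to cold responses of 1.40 and 1.51. With the lymphocyte score as a covariate, the 9 interaction values lay between -0.57 (Mdh2) and -0.15 (Idh3b), and 0 were called.

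**Figure D5:**
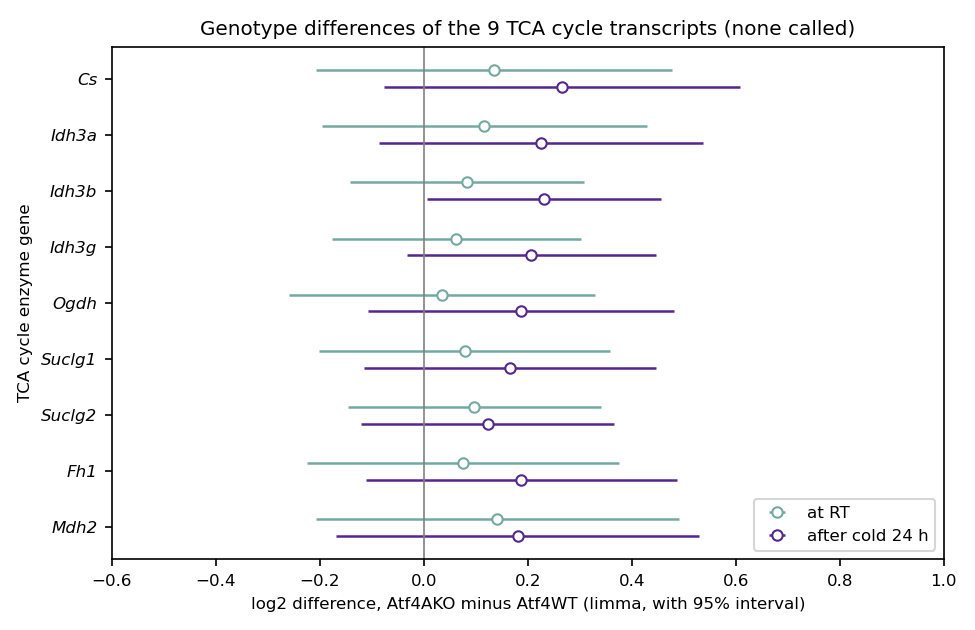
Log2 difference between Atf4AKO and Atf4WT iWAT (limma, with the 95% interval) for the 9 TCA cycle genes at RT (green) and after cold (purple). All 18 points lie to the right of 0, at 0.03 to 0.14 at RT and 0.12 to 0.27 after cold, and the intervals include 0 except that of Idh3b after cold.

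The members varied together over the libraries. Against the mean of the other 8, the correlation over the 12 libraries was 0.951 to 0.994 for 8 of the members and -0.191 for Suclg2. After removing the group means it was 0.832 to 0.965 for those 8 and 0.586 for Suclg2. Atf4WT RT replicate 2 had the lowest and Atf4AKO RT replicate 1 the highest value of their group for all 9 genes, and Atf4AKO cold replicate 0 had the lowest of its group for 8 of 9. The 5 genes outside the members whose log2 values over the 12 libraries were most like the members' mean were Dlst (r = 0.996), Ecsit (0.995), which takes part in the assembly of respiratory complex I, Isca1 (0.995), an iron-sulfur cluster assembly factor, Cox7b (0.993), a subunit of cytochrome c oxidase, and Slc25a11 (0.992), the 2-oxoglutarate carrier. Close likeness to the members' mean was not particular to these genes. Among the genes outside the members, Mrps36 ranked 533 at r = 0.948 and Sdha ranked 1068 at r = 0.907. These correlations describe likeness over the 12 libraries, which share their scaling and the step between RT and cold.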

How the data were processed

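Polyadenylated RNA of iWAT was sequenced in 12 libraries. The authors used SOAPnuke for read filtering, STAR for alignment to mm10, featureCounts for the uniquely mapped reads of each gene and pyDESeq2 for size factors. Versions and strand setting are not given in the sources used here. The deposited values are this normalized signal for 14159 genes. Dividing by the value of 1 read gave whole reads (100% of values within 0.1 reads, largest deviation 0.000313). No column was left out.

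limma 3.58.1 (R 4.3.3, lmFit and eBayes with a variance trend) was fitted to log2(normalized count + 1) with 4 group means. It covered 13404 genes averaging 10 or more normalized counts. Fits were checked on simulated counts. Ratios were compared with two-sided exact permutation tests. Replicates are biological by the labels. The members and gene lists were chosen with earlier results of these data known. Beside the members, the text names 9 other TCA cycle genes (1 listed gene is not reported here), up to 4 genes called after cold from each other metabolic list, Mdh1, Atf4, Ucp1 and the 5 genes most like the members. Alternatives were pseudocounts of 0.5 and 5, no filter or a mean of 50, 2-group fits, 75th percentile and TMM scaling, lymphocyte or muscle scores as covariates, the replicate block, leaving out libraries, edgeR 4.0.16, DESeq2 1.42.0 and coding length. Positions came from GENCODE (GRCm38). Python 3.11.15 with pandas 2.3.3 was used for the rest. The number of libraries, rather than counting error, limited the precision for these transcripts.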

Additional observations from a re-analysis of the deposited data

How the results depend on the processing

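Under the planned settings without a left-out library, 7 or 8 of the 9 transcripts rose after cold in each genotype, except at the fold threshold (5 and 6), and 0 were called between genotypes or for the interaction. Over all genes the counts varied more. Between genotypes after cold, 0 were higher and 4 lower by limma, against 31 and 559 by DESeq2, 2 and 187 with the replicate block, 18 and 497 without Atf4WT cold replicate 0, 2 and 144 without Atf4WT RT replicate 2, 30 and 455 without the 3 libraries with muscle transcripts, 0 with the lymphocyte score as a covariate or with 2 groups fitted, and 2 to 5 genes in the other fits. For the interaction, where limma called 0, it was 0 and 64 without Atf4WT cold replicate 0, 2 and 268 without the 3 libraries and 4 and 128 by DESeq2. At RT, 1 to 5 genes were called. For cold in Atf4WT iWAT the covariate gave 1382 higher and 487 lower, against 2273 and 2000. For cold in Atf4AKO iWAT, 1988 higher and 1479 lower became 1372 and 836 without Atf4AKO RT replicate 0, 1309 and 971 without Atf4AKO cold replicate 1, and 1268 and 951 without the 3 libraries. Leaving out each library in turn gave 6 to 8 calls after cold in Atf4WT, 7 to 8 in Atf4AKO iWAT and 0 otherwise. The lymphocyte score as a covariate moved the medians to 1.05 (cold in Atf4WT), -0.25 (genotypes after cold) and -0.36 (interaction), and omitting the 3 libraries with muscle transcripts gave 0.50 for cold in Atf4WT iWAT. The cause was not tested. With that covariate, Suclg2 in Atf4WT iWAT was at 0.041. The genotype differences after cold became -0.25 (Cs), -0.26 (Idh3a), -0.078 (Idh3b), -0.10 (Idh3g), -0.14 (Ogdh), -0.36 (Suclg1), -0.098 (Suclg2), -0.32 (Fh1) and -0.45 (Mdh2), and the interaction values, in the same order, -0.37, -0.36, -0.15, -0.15, -0.16, -0.42, -0.19, -0.38 and -0.57. Without the 3 libraries with muscle transcripts, the genotype differences at RT were -0.011 (Cs), -0.0071 (Idh3a), -0.0054 (Idh3g), -0.027 (Ogdh), -0.043 (Suclg1), -0.047 (Fh1) and -0.024 (Mdh2). With 75th percentile scaling, the interaction of Suclg2 was -0.0094. Fh1 in Atf4WT iWAT passed with that scaling, the covariate, the replicate block, DESeq2 and without Atf4AKO RT replicate 2, and Fh1 in Atf4AKO iWAT did not pass when only the 2 groups were fitted.

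Leave-one-out ranges that crossed 0 were, at RT between genotypes, -0.011 to 0.24 (Cs), -0.0071 to 0.23 (Idh3a), -0.029 to 0.13 (Idh3g), -0.027 to 0.094 (Ogdh), -0.043 to 0.15 (Suclg1), -0.017 to 0.19 (Suclg2), -0.047 to 0.19 (Fh1) and -0.024 to 0.25 (Mdh2). For the interaction they were -0.003 to 0.23 (Idh3a), -0.065 to 0.14 (Suclg2) and -0.069 to 0.20 (Mdh2), and for cold in Atf4AKO iWAT -0.20 to 0.0011 (Suclg2). The genotype ratios ranged from -0.043 to 0.10 (Suclg2 to Sucla2), 0.16 to 0.25 (Idh3a to Idh2, where 4 fits lost the call) and -0.0093 to 0.03 (Mdh2 to Mdh1). The correlations of deviations from the group means were -0.189 to 0.389 between same-numbered libraries, and 0.179 to 0.389 for replicate 1. Differently numbered libraries were not set beside them, so whether the replicate numbers pair the libraries was not tested. With the replicate block, 8 members rose after cold in each genotype. The exact permutation tests of the ratios then had 64 arrangements and a smallest p of 0.03125. Adjusted over the 8 tests, the ratios called without the block no longer passed. Their log2 differences were -1.18 (Suclg2 to Sucla2), 2.12 and 0.20 (Idh3a to Idh2 by cold and genotype), 0.15 (Idh3b to Idh3g) and -0.32 (Mdh2 to Mdh1).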

Other observations

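Among 6 cytosolic counterparts of the cycle's enzymes and shuttles, 2 rose in each genotype, Mdh1 and Got1, the cytosolic aspartate aminotransferase of the same shuttle, and 0 fell. Got1 went from 224, 198 and 382 normalized counts to 1267, 1363 and 1196 in Atf4WT iWAT, a log2 difference of 2.30 (adjusted p = 6.88e-05 by limma), and rose by 2.52 in Atf4AKO iWAT (adjusted p = 4.58e-05). The other 4, Aco1, Idh1, Acly and Me1, did not pass in either genotype. Among 7 tested carriers, 3 rose in each genotype, namely Mpc2, a subunit of the mitochondrial pyruvate carrier (1.27 and 1.08), the glutamate carrier Slc25a22 (0.70 and 0.69) and Slc25a11 (0.64 and 0.71).

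Of 11 tested genes of anaplerosis and exit from the cycle, 1 rose in each genotype, Glud1, which makes 2-oxoglutarate from glutamate (0.42, adjusted p = 0.0204, and 0.48, adjusted p = 0.0123), with a median over the list of -0.07 in Atf4WT and -0.02 in Atf4AKO iWAT. Pck2, the mitochondrial phosphoenolpyruvate carboxykinase, fell by 0.44 in Atf4AKO iWAT (adjusted p = 0.0155) and stood at -0.22 in Atf4WT iWAT (adjusted p = 0.159), and the difference between the genotypes' responses was not called by limma.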
